A study of Rattus norvegicus with 21 samples.

Results

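The small RNA of INS-1 832/13 cells was compared between cells given 1 of 3 metals, pooled with equal weight, and untreated cells. INS-1 832/13 is an insulin-secreting subclone of a rat insulinoma line derived from a beta cell tumour. The metals were inorganic arsenic (iAs, 1 µM), cadmium (Cd, 5 µM) and manganese (Mn, 25 µM), each given for 24 h, and untreated cells received none of them. Each of the 4 groups had 3 small RNA libraries, so 9 metal libraries and 3 untreated libraries entered the comparison, 12 of the 21 samples of the series. A row of the table is 1 mature microRNA or a form of it with a shifted start, and 523 of 1186 rows had a mean of at least 10 RPMMM over the 12 libraries and were tested. RPMMM is the number of reads per 1000000 reads mapped to microRNAs. The comparison asks which microRNAs respond in the same way to all 3 metals. Every group comes from the same tumour-derived line at 1 dose and 1 time. Whether replicate libraries were grown as separate cultures is not in the labels, so the p-values measure only the spread between these libraries, which may be technical.

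MicroRNAs are short RNAs that guide Argonaute proteins to messenger RNAs, mostly by pairing of the seed near the 5′ end, and lower the output of those messengers. MicroRNA genes often lie in clusters that are transcribed together, and both arms of 1 hairpin can give a mature product, named 5p and 3p. In beta cells, miR-375 and miR-7a are abundant and restrain insulin secretion, while let-7 and the miR-103/107 pair are known regulators of insulin signalling in liver, muscle and fat.

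The mature sequences that carry the main differences are given from RefSeq (GRCr8), 5′ to 3′, with the seed (bases 2 to 8) in capitals. The first 9 share the let-7 seed and differ from each other at few positions outside it, which matters because 5 of them were higher with the metals and 4 were not called. The next 4 are the pairs with a shared seed in which both members were lower. The last 2 are miR-378a-3p, the row whose call held without any single library, and miR-210-3p, the row with the largest fall.
let-7a-5p: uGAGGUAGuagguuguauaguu
let-7b-5p: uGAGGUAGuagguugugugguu
let-7c-5p: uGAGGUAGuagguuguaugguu
let-7d-5p: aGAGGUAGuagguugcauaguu
let-7e-5p: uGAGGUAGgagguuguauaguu
let-7f-5p: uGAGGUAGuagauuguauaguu
let-7g-5p: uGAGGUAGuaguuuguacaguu
let-7i-5p: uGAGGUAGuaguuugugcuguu
miR-98-5p: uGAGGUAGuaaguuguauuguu
miR-103-3p: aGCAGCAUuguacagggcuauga
miR-107-3p: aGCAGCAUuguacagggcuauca
miR-101a-3p: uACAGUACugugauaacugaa
miR-101b-3p: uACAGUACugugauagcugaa
miR-378a-3p: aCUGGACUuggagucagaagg
miR-210-3p: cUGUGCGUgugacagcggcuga

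The 12 libraries held about 5907000 to 7905000 microRNA reads each, estimated from the spacing of low values. Although a label names liver as the tissue, the liver microRNA miR-122 summed to at most 12.6 RPMMM in metal libraries and 6.79 RPMMM in untreated libraries. The endocrine miR-375 rows summed to 57498 to 71865 RPMMM in metal libraries and to 61722 to 67978 RPMMM in untreated libraries. Rows of miR-150, miR-223 and miR-451, which mark blood cells, were not among the rows of the table used here, and miR-142 reached at most 2.86 RPMMM in metal libraries and 4.12 RPMMM in untreated libraries. The endothelial miR-126a was detected, summing to 180 to 227 RPMMM in metal libraries and 180 to 199 RPMMM in untreated libraries. The list of striated muscle microRNAs summed to 69.4 to 85.4 RPMMM in metal libraries and to 89.1, 62.2 and 76.9 RPMMM in untreated replicates 1, 2 and 3. Untreated replicate 1 stood apart. On the first principal component of the tested rows, which held 35% of the variance, the metal libraries scored between -3.63 and 2.09, against 6.76 in untreated replicate 1, 2.52 in untreated replicate 2 and -0.03 in untreated replicate 3. In some libraries the deviations of rows from their means also followed the GC share of the mature sequence. In replicates 1, 2 and 3, the correlations across rows were -0.34, -0.20 and 0.22 for untreated and 0.48, -0.28 and 0.29 for Cd. They were 0.06, -0.22 and -0.07 for iAs and 0.07, 0.06 and 0.11 for Mn. Rows are not independent replicates, so these correlations describe the libraries. Differences from untreated cells are therefore followed by their value without untreated replicate 1 for the called rows and the lists described. In bulk RNA, fewer cells that make a microRNA and less of it per cell cannot be told apart.

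**Figure D1:**
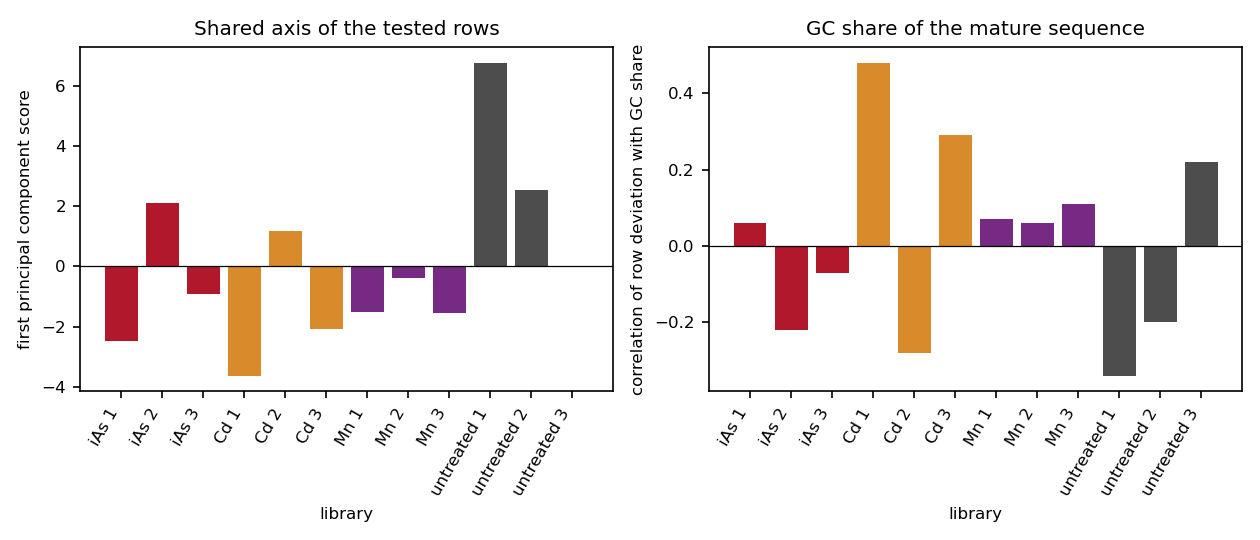
Score of each library on the first principal component of the 523 tested rows (left) and correlation across rows of its deviations with the GC share of the mature sequence (right), both without units, for iAs, Cd, Mn and untreated libraries. Untreated replicate 1 has the highest score, 6.76, and the lowest GC correlation, -0.34.

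With the metals together, several let-7 microRNAs were higher than in untreated cells by small amounts. Both miR-101 sequences, miR-103 and miR-107, some miR-30 rows and 1 arm each of miR-106b, miR-93 and miR-25 were lower. In limma's test on log2(RPMMM + 1), 71 of 523 rows (13.6%) passed an adjusted p of 0.05 for the mean of the metals against untreated, 31 higher (5.93%) and 40 lower (7.65%). The largest rise was 0.76 and the largest fall -0.54 on the log2 scale, and 3 of the 71 rows, all higher, differed more than 1.5-fold. The median difference was 0.31 among rows called higher and -0.31 among rows called lower, against -0.02 over all tested rows. All 9 metal libraries lay above all 3 untreated libraries in 10 tested rows (1.91%) and below them in 18 (3.44%). Among the called rows this held for 8 of those higher and 15 of those lower, and in the other 48 the libraries overlapped. Values sum to 1000000 in every library, so each is a share, and a change is relative to the other microRNAs. Under quantile normalization 8 rows were called higher and 19 lower.

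Left out alone, untreated replicate 1 ended nearly all of these calls. Only miR-378a-3p then passed, 1 of 523 rows (0.191%), although 92 rows had an unadjusted p under 0.05, among them 62 of the 71. All 71 differences kept their sign without any single library. The 71 rows were chosen with libraries that these fits share, so kept signs and low unadjusted p-values were likely in advance. The median differences became 0.24 for rows called higher and -0.25 for rows called lower when untreated replicate 1 was absent. Of the 71 calls, 21 (5 higher and 16 lower) were lost with that library alone, 9 with 2 or 3 of the libraries and 40 with 4 to 11 of them. The count of calls fell to 44 without iAs replicate 1, 33 without iAs replicate 3, 45 without Cd replicate 1 and 31 without Cd replicate 3. It was 39 without Mn replicate 1, 34 without Mn replicate 3 and 24 without untreated replicate 2, and it reached 111 without untreated replicate 3. The GC share was known for 485 of the tested rows, and 68 of these passed when fitted alone. After a linear correction of each library for GC share, 94 of the 485 passed with all libraries. Without untreated replicate 1, 0 of them passed, while 104 had an unadjusted p under 0.05 in limma. What sets this library apart was not tested further.

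**Figure D2:**
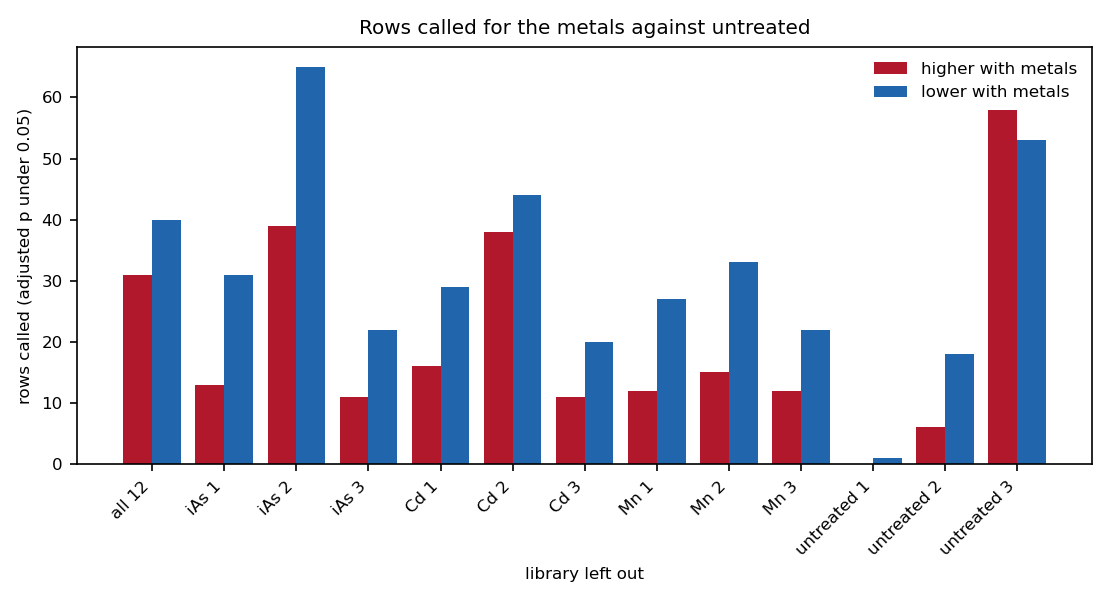
Number of rows called higher or lower with the metals than in untreated cells (limma, adjusted p under 0.05), with all 12 libraries and with each library left out in turn. The counts are 31 higher and 40 lower with all libraries, and 0 higher and 1 lower without untreated replicate 1.

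The let-7 family was the largest group among the rises. Its members are late-acting developmental microRNAs that restrain growth genes, and they were abundant here, the rows of let-7 and miR-98 summing to 274958 to 314507 RPMMM (median 304063) in metal libraries against 246822, 270798 and 283327 RPMMM in untreated libraries. The ranges overlapped, with the highest untreated library above the lowest metal library. Of 74 distinct let-7 and miR-98 rows, 15 rose and 1 fell, and their median difference was 0.15 (0.09 without untreated replicate 1), against 13.5% called and a median of -0.01 over all 505 distinct rows. This list was drawn up with earlier results of these data known and carries no test of its own. The 15 rises include let-7a-5p and let-7c-5p under more than 1 precursor with almost the same values, so rows are not separate sequences. By mature sequence, 5 of the 9 that carry the let-7 seed rose and 0 fell, and 4 were not called.

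let-7d-5p had 25068, 31106 and 32835 RPMMM as the lowest, median and highest metal library, against 19303, 23128 and 26027 RPMMM in the untreated libraries. The highest untreated library lay just above the lowest metal library, iAs replicate 2. The difference was 0.39 ± 0.09 (SE) on the log2 scale with a limma adjusted p of 0.0149, and 0.28 without untreated replicate 1. By metal it was 0.35 for iAs, 0.43 for Cd and 0.39 for Mn, the same 3 untreated libraries serving for each.

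let-7e-5p had 6174, 7306 and 7850 RPMMM as the lowest, median and highest metal library, against 4540, 4987 and 6210 RPMMM in untreated libraries. Here too only the highest untreated library reached into the metal range. Its difference was 0.41 ± 0.10 (SE), limma adjusted p 0.0198, and 0.31 without untreated replicate 1. The other arm of the same hairpin, let-7e-3p, fell, with 36.2, 43.7 and 50.7 RPMMM as the lowest, median and highest metal library against 50.7, 52.97 and 60.4 RPMMM in untreated libraries (-0.31 ± 0.09 SE, limma adjusted p 0.0336, and -0.36 without untreated replicate 1). The arms of let-7e thus moved in opposite directions in the mean of the metals, on libraries that barely overlapped for either arm. The call of let-7e-5p was also lost without untreated replicate 2, and that of let-7e-3p without 7 of the 12 libraries, over which its difference lay between -0.36 and -0.24.

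The let-7a-5p sequence, counted in the table under its precursors 1 and 2 with almost the same values, had 19022, 22024 and 22798 RPMMM as the lowest, median and highest metal library against 15829, 18510 and 19544 RPMMM in untreated libraries (row let-7a-1-5p). The difference was 0.27 ± 0.06 (SE), limma adjusted p 0.0192, and 0.18 without untreated replicate 1. let-7c-5p, likewise under precursors 1 and 2, differed by 0.28 (0.17 without that library), limma adjusted p 0.0318. let-7g-5p had 18479 to 19924 RPMMM in all 9 metal libraries, above the untreated values of 16427, 18020 and 18057 RPMMM, and differed by 0.15 (0.10 without untreated replicate 1), limma adjusted p 0.0318. So let-7g-5p, the smallest of the 5 differences, was the one whose libraries did not overlap. The calls of let-7a-5p and let-7d-5p were also lost without untreated replicate 2, and those of let-7c-5p and let-7g-5p without 8 and 7 of the libraries.

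The remaining members with the same seed did not pass. let-7b-5p, a close copy of let-7c-5p, had a difference of 0.29 (0.18 without untreated replicate 1) with a limma adjusted p of 0.0656, and let-7f-5p one of 0.12 (0.10 without it) with an adjusted p of 0.0629 (row let-7f-1-5p). miR-98-5p differed by 0.03 and let-7i-5p by -0.05, the only negative value of the 9. These sequences are close copies, and how reads that fit more than 1 of them were assigned is not given in the sources used here, so levels of single members are uncertain. Among shifted forms, let-7d-5p_+_1 rose by 0.45 (0.35 without untreated replicate 1, limma adjusted p 0.0123), with 314, 398 and 437 RPMMM as the lowest, median and highest metal library against 245, 288 and 319 RPMMM in untreated libraries. let-7c-2-5p_+_1 rose by 0.38 (0.28 without that library, adjusted p 0.0123).

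**Figure D3:**
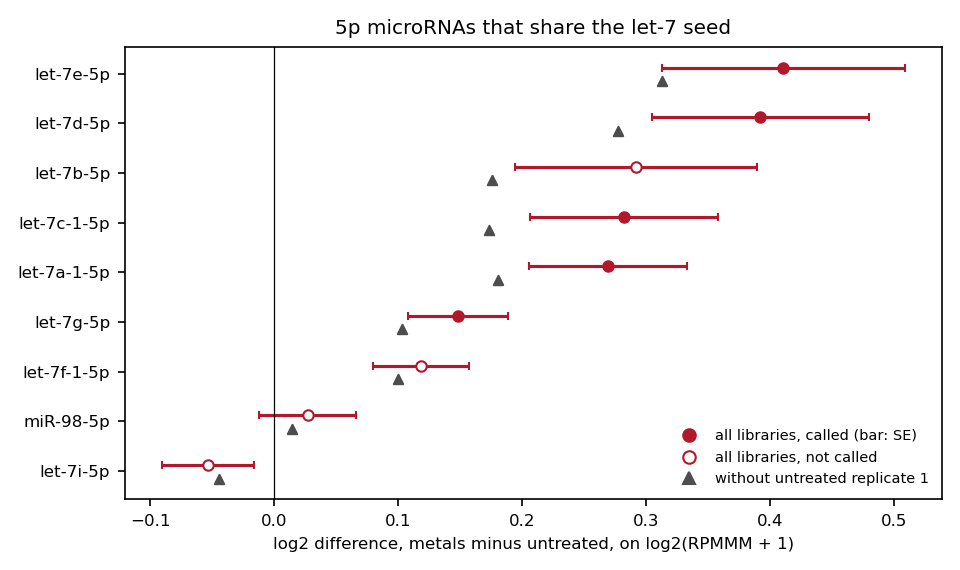
Log2 difference of the mean of the metals minus untreated, on log2(RPMMM + 1), for the 9 mature microRNAs that share the let-7 seed. Circles with SE bars use all libraries (filled where called, adjusted p under 0.05), and triangles leave out untreated replicate 1. Differences run between -0.05 for let-7i-5p and 0.41 for let-7e-5p, and are nearer 0 without that library for all 9.

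Other rises were spread over microRNAs of several kinds. The row with the largest difference was the shifted form miR-320-3p_-_1, with 10.2, 17.1 and 20.4 RPMMM as the lowest, median and highest metal library against 7.59, 8.43 and 11.4 RPMMM in untreated libraries (0.76 ± 0.19 SE, limma adjusted p 0.0229, and 0.65 without untreated replicate 1). miR-483-5p, made from an intron of the growth factor gene Igf2, had 37.3, 52.5 and 71.2 RPMMM as the lowest, median and highest metal library against 28.2, 31.1 and 40.4 RPMMM in untreated libraries. Its difference was 0.63 ± 0.18 (SE), limma adjusted p 0.0406, and 0.52 without untreated replicate 1, and 8 of the 12 single libraries ended its call. Both rows sit at low levels, and in each the highest untreated library passed the lowest metal one.

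The shifted form miR-29b-1-5p_-_5 had 131, 171 and 234 RPMMM as the lowest, median and highest metal library against 93.7, 110 and 135 RPMMM in untreated libraries (0.62 ± 0.11 SE, limma adjusted p 0.0112, and 0.50 without untreated replicate 1). It also differed among the metals, with 0.94 for iAs, 0.59 for Cd and 0.33 for Mn. miR-184, which targets Ago2 in beta cells and is lowered in insulin resistance in mice, had 45.7, 51.1 and 54.8 RPMMM as the lowest, median and highest metal library against 34.8, 45.9 and 39.4 RPMMM in untreated libraries. It was 0.34 ± 0.09 (SE) higher, limma adjusted p 0.0247, and 0.25 higher without untreated replicate 1, and the call was also lost without Cd replicate 3. miR-196a-5p, encoded within the Hox gene clusters, had 885, 930 and 1081 RPMMM as the lowest, median and highest metal library against 764, 798 and 850 RPMMM in untreated libraries. All 9 metal libraries were above all 3 untreated ones for miR-196a-5p (0.26 ± 0.05 SE, limma adjusted p 0.0123, and 0.22 without untreated replicate 1).

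Further rises were those of miR-194-2-3p (0.39, and 0.24 without untreated replicate 1), let-7e-5p_-_1 (0.39 and 0.26) and miR-200c-3p_+_2 (0.30 and 0.29), each with an adjusted p between 0.0305 and 0.0493 in limma and each lost without 6 or more of the libraries. The miR-200 family holds cells in an epithelial state. Of its 10 distinct rows with miR-141, 2 rose and 0 fell (20% called, against 13.5% of all distinct rows), and the median difference was 0.09 (0.10 without untreated replicate 1). Both rises were shifted forms of miR-200c-3p, and none of the 4 unshifted rows was called.

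The pair miR-103 and miR-107, which dampen insulin sensitivity through caveolin 1 in mouse fat and liver, fell together. miR-103-1-3p had 7950, 8105 and 8969 RPMMM as the lowest, median and highest metal library against 9830, 9295 and 9338 RPMMM in untreated libraries. All 9 metal libraries were below all 3 untreated ones. The difference was -0.21 ± 0.04 (SE), limma adjusted p 0.0123, and -0.19 without untreated replicate 1. miR-107-3p, which differs outside the seed, had 1706, 1800 and 1986 RPMMM as the lowest, median and highest metal library against 2365, 2086 and 2072 RPMMM in untreated libraries, again without overlap (-0.26 ± 0.06 SE, limma adjusted p 0.0144, and -0.19 without untreated replicate 1). Reads of miR-103 and miR-107 differ so little that their split is uncertain. For both the call was lost with untreated replicate 1 and with no other single library, and the metals lay close together, at -0.17, -0.23 and -0.24 for miR-103-1-3p and at -0.24, -0.30 and -0.23 for miR-107-3p in iAs, Cd and Mn.

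Both miR-101 sequences fell. They are known to restrain the chromatin enzyme EZH2 in human cancer cells. miR-101a-3p had 189, 205 and 297 RPMMM as the lowest, median and highest metal library against 381, 296 and 256 RPMMM in untreated libraries. miR-101b-3p had 778, 804 and 1013 RPMMM as the lowest, median and highest metal library against 1396, 1093 and 950 RPMMM in untreated libraries. In both the highest value was that of untreated replicate 1, and the iAs libraries overlapped the untreated ones. miR-101a-3p differed by -0.46 ± 0.10 (SE), limma adjusted p 0.0134, and by -0.30 without untreated replicate 1. miR-101b-3p differed by -0.42 ± 0.10 (SE), limma adjusted p 0.0192, and by -0.27 without that library, and its call was also lost without untreated replicate 2. In iAs, Cd and Mn, miR-101a-3p differed by -0.17, -0.56 and -0.65, and so among the metals (limma F test, adjusted p 0.0295). miR-101b-3p differed by -0.34, -0.46 and -0.47 and was not called among them. Without untreated replicate 1 the median of the 5 distinct miR-101 rows was -0.24, against -0.41 with all libraries, and 4 of the 5 had been called lower.

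Some rows of miR-30, microRNAs that hold mesenchymal genes low in human islet cells, also fell. Of the 21 distinct rows 6 fell and 0 rose (28.6% called, against 13.5% of all distinct rows), and the median difference was -0.11 (-0.07 without untreated replicate 1). miR-30d-5p had 31101, 33010 and 35063 RPMMM as the lowest, median and highest metal library against 38889, 35599 and 36392 RPMMM in untreated libraries, without overlap (-0.17 ± 0.04 SE, limma adjusted p 0.0192, and -0.14 without untreated replicate 1). miR-30a-5p and miR-30e-5p differed by -0.25 and -0.27 (-0.19 and -0.18 without untreated replicate 1), with limma adjusted p of 0.0305 and 0.0295. Their calls were lost without 6 and 5 of the libraries. Metal and untreated libraries overlapped for both.

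Rows from neighbouring loci were set side by side by their positions in RefSeq (GRCr8), with loci taken as neighbours within 10 kb. Only clusters with called rows from more than 1 locus are described, so joint calls within them follow from that choice. The miR-106b, miR-93 and miR-25 hairpins, which lie within 472 bases on chromosome 12, each gave 1 arm that fell. miR-25-3p had 18882, 20113 and 22609 RPMMM as the lowest, median and highest metal library against 23056, 22808 and 22465 RPMMM in untreated libraries (-0.16 ± 0.03 SE, limma adjusted p 0.0123, and -0.15 without untreated replicate 1), and its libraries overlapped at 1 Mn library. miR-93-5p differed by -0.24 (-0.22 without untreated replicate 1, limma adjusted p 0.0305) and miR-106b-5p by -0.32 (-0.21 without it, adjusted p 0.0493). In iAs, Cd and Mn, miR-25-3p differed by -0.26, -0.17 and -0.06, and miR-93-5p by -0.345, -0.29 and -0.07. Both rows differed among the metals (limma F test, adjusted p 0.0153 and 0.0441). The other arms of these hairpins were not called, with 0.27 for miR-25-5p, -0.07 for miR-93-3p and -0.07 for miR-106b-3p. The calls of miR-93-5p and miR-106b-5p were lost without 5 and 9 of the libraries. The 26 rows of miR-17-92 and its paralogue clusters, growth-promoting microRNAs to which these belong, held 4 that fell and 0 that rose (15.4% called, near the 13.5% of all distinct rows), with a median of -0.14 (-0.11 without untreated replicate 1).

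On the X chromosome, miR-532-5p and miR-188-5p lie in 1 cluster and both fell. miR-532-5p had 290, 341 and 373 RPMMM as the lowest, median and highest metal library against 453, 391 and 392 RPMMM in untreated libraries, without overlap (-0.31 ± 0.06 SE, limma adjusted p 0.0123, and -0.24 without untreated replicate 1). miR-188-5p differed by -0.31 (-0.23 without it, limma adjusted p 0.0387), and also among the metals (limma F test, adjusted p 0.0285). Its call was lost without 8 of the libraries. In the same cluster miR-532-3p, miR-362-3p and miR-500-3p were not called, at 0.14, -0.21 and -0.04. On chromosome 1, miR-99b, let-7e and miR-125a share a cluster. In it let-7e-5p and miR-125a-3p rose, let-7e-3p fell and the other 3 tested arms were not called. The rise of miR-125a-3p was 0.36 (0.23 without untreated replicate 1, limma adjusted p 0.0473), and its call was lost without 9 of the libraries. On chromosome 17, let-7a-1-5p and let-7d-5p, which share a cluster, both rose, and the 3p arms of both hairpins were not called, at -0.21 for let-7a-1-3p and 0.24 for let-7d-3p.

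The largest fall was that of miR-210-3p, a microRNA induced by hypoxia. It had 298, 441 and 314 RPMMM in iAs, 471, 447 and 424 RPMMM in Cd and 412, 385 and 403 RPMMM in Mn libraries, against 654, 585 and 501 RPMMM in untreated libraries. All 9 metal libraries were below all 3 untreated ones. The difference was -0.54 ± 0.11 (SE), limma adjusted p 0.0123, and -0.45 without untreated replicate 1. miR-582-3p differed by -0.49 (-0.44 without untreated replicate 1), limma adjusted p 0.0113, and its shifted form miR-582-3p_-_1 by -0.44 (-0.38 without it), adjusted p 0.0112. The shifted form differed among the metals, at -0.44 for iAs, -0.20 for Cd and -0.70 for Mn (limma F test, adjusted p 0.0095). The calls of miR-210-3p and both miR-582-3p rows were lost with untreated replicate 1 and with no other single library.

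miR-378a-3p, which is encoded in the Ppargc1b gene and acts on mitochondrial metabolism, had the smallest p. It had 1973, 1994 and 1910 RPMMM in iAs, 2185, 2275 and 2293 RPMMM in Cd and 2449, 2405 and 2500 RPMMM in Mn libraries, against 2721, 2670 and 2656 RPMMM in untreated libraries. The 4 groups did not overlap at all. The difference of the mean was -0.28 ± 0.04 (SE), limma adjusted p 0.0039, and -0.27 without untreated replicate 1. It was the 1 row whose call held in every fit that left out a single library, but the metals were unequal, at -0.45 for iAs, -0.25 for Cd and -0.13 for Mn, with an adjusted p of 0.0014 for the difference among them.

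**Figure D4:**
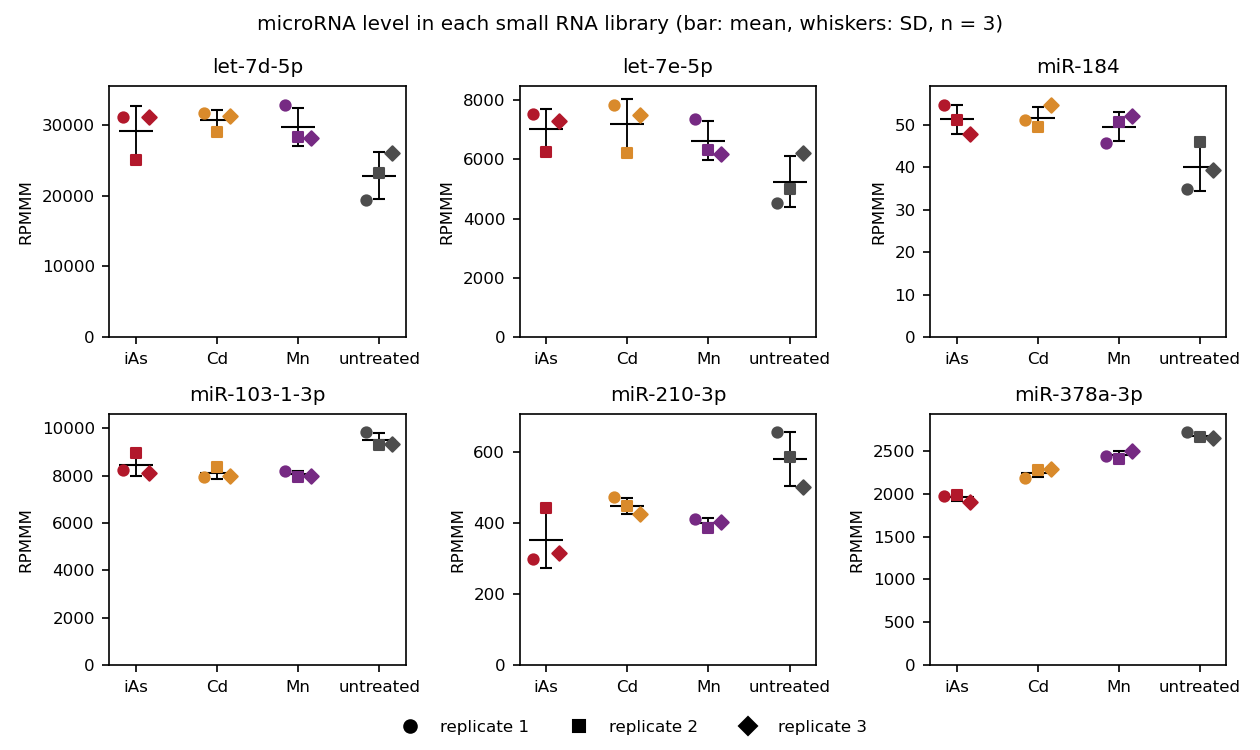
RPMMM of 6 microRNAs in each library (points, shaped by replicate) with the group mean and SD (n = 3), for iAs, Cd, Mn and untreated cells, on axes that start at 0. let-7d-5p, let-7e-5p and miR-184 are higher with the metals, and miR-103-1-3p, miR-210-3p and miR-378a-3p are lower, miR-378a-3p in a graded order of the metals.

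A response common to the metals was then asked of each metal on its own. A row had to differ from untreated cells in 1 direction for iAs, Cd and Mn, and the largest of the 3 p-values was adjusted over all rows. No row passed this test (0 of 523, 0%) in limma, while 45 rows had an unadjusted p under 0.05. The smallest of these p-values was 0.0048, for let-7d-5p_+_1, with an adjusted p of 0.4008, followed by let-7d-5p, miR-103-1-3p and miR-107-3p. The 3 comparisons share the untreated libraries. Another limma fit weighted libraries by their estimated quality, an estimation that stopped before its tolerance. The weights were 0.34, 2.65 and 0.65 for untreated replicates 1, 2 and 3, so untreated replicate 2 counted most among them. They were 3.17 for iAs replicate 3 and 2.82 for Cd replicate 3. In that fit 9 rows passed, among them let-7d-5p, miR-101b-3p, miR-103-1-3p and miR-210-3p. With Cd left out, 1 row, miR-582-3p, passed for both of the other metals.

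Of the 71 rows called for the mean, 66 had the same sign for each metal and 5 did not (miR-146a-5p, miR-212-3p, miR-708-5p and both rows of miR-218a-5p). These rows were chosen by the mean, and the differences of the metals share the untreated libraries. A shared sign was therefore likely in advance and does not show a common response. The difference among iAs, Cd and Mn, which does not use the untreated libraries as a reference, passed in 94 of 523 rows (18%) in limma's F test, and 144 rows had an unadjusted p under 0.05. Of the 71 called rows, 20 were among these 94 (5 higher and 15 lower), and 51 were not, which does not show that the metals act alike there. The count of 94 fell to 46 without iAs replicate 3, 56 without Cd replicate 3, 52 without Mn replicate 1 and 50 without Mn replicate 3, and was 104 without untreated replicate 1. In 45 of the 94 rows Mn lay farthest from the other metals, in 34 iAs and in 15 Cd. The metals had differences of both signs from untreated cells in 72 of the 94 rows.

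miR-146a-5p, an inhibitor of NF-kB signalling, was called higher in the mean with unequal values per metal. It had 29.3, 30.0 and 27.5 RPMMM in iAs, 15.6, 18.9 and 17.9 RPMMM in Cd and 12.4, 12.7 and 14.8 RPMMM in Mn libraries, against 16.8, 13.3 and 15.01 RPMMM in untreated libraries. Only the iAs libraries stood above all others. The differences were 0.90 for iAs, 0.20 for Cd and -0.17 for Mn, with an adjusted p of 0.00017 among the metals, and the call for the mean (0.31, limma adjusted p 0.0473, and 0.39 without untreated replicate 1) was lost without 11 of the 12 libraries.

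miR-212-3p, an activity-induced microRNA of the miR-132 family that raises insulin secretion in rodent islets, was higher with iAs (0.30) and Cd (0.51) and had a difference of -0.11 with Mn. Its levels were 188, 180 and 176 RPMMM in iAs, 219, 198 and 211 RPMMM in Cd and 135, 146 and 129 RPMMM in Mn libraries, against 136, 138 and 168 RPMMM in untreated libraries. The iAs and Cd libraries were above all untreated ones and the Mn libraries were not. Its call for the mean, 0.24 with a limma adjusted p of 0.0473 (0.18 without untreated replicate 1), was lost without 9 of the libraries, and its sister miR-132-3p was not called for the mean at 0.16 (0.08 without it).

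Among the falls, miR-708-5p, made from an intron of the Odz4 gene and induced by endoplasmic reticulum stress in mouse cells, had 49.9, 48.1 and 52.7 RPMMM in iAs, 63.6, 65.3 and 66.5 RPMMM in Cd and 97.1, 82.1 and 78.3 RPMMM in Mn libraries, against 86.9, 79.8 and 84.7 RPMMM in untreated libraries. The iAs and Cd libraries were below all untreated ones, and the Mn libraries spanned them. Its mean difference of -0.35 (-0.33 without untreated replicate 1, limma adjusted p 0.0123) thus held -0.73 for iAs, -0.36 for Cd and 0.03 for Mn. miR-410-3p, of the imprinted cluster on chromosome 6, had 13.1, 15.9 and 9.19 RPMMM in iAs, 22.0, 22.3 and 22.5 RPMMM in Cd and 30.5, 25.4 and 28.0 RPMMM in Mn libraries, against 32.4, 27.2 and 25.1 RPMMM in untreated libraries. The mean difference was -0.48 (-0.38 without untreated replicate 1, limma adjusted p 0.0326), made of -1.11 for iAs, -0.32 for Cd and -0.01 for Mn. miR-369-3p of the same cluster followed the same order, at -0.91, -0.34 and -0.15 in iAs, Cd and Mn, and its mean of -0.47 was -0.36 without untreated replicate 1. All 5 tested rows of that cluster differed among the metals, and 2 fell in the mean. The calls of miR-410-3p and miR-369-3p for the mean were each lost without 6 of the libraries.

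A further 74 rows differed among the metals with no call for the mean. miR-27b-5p had the smallest p among the metals. It had 207, 192 and 195.2 RPMMM in iAs, 260, 270 and 271 RPMMM in Cd and 328, 328 and 326 RPMMM in Mn libraries, against 256, 273 and 293 RPMMM in untreated libraries. The iAs libraries were below and the Mn libraries above all untreated ones, so that the mean difference was -0.08 (limma adjusted p 0.3329). miR-382-5p, of the chromosome 6 cluster, showed the same order with -0.55 for iAs, 0.05 for Cd and 0.50 for Mn, and a mean of -0.00.

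**Figure D5:**
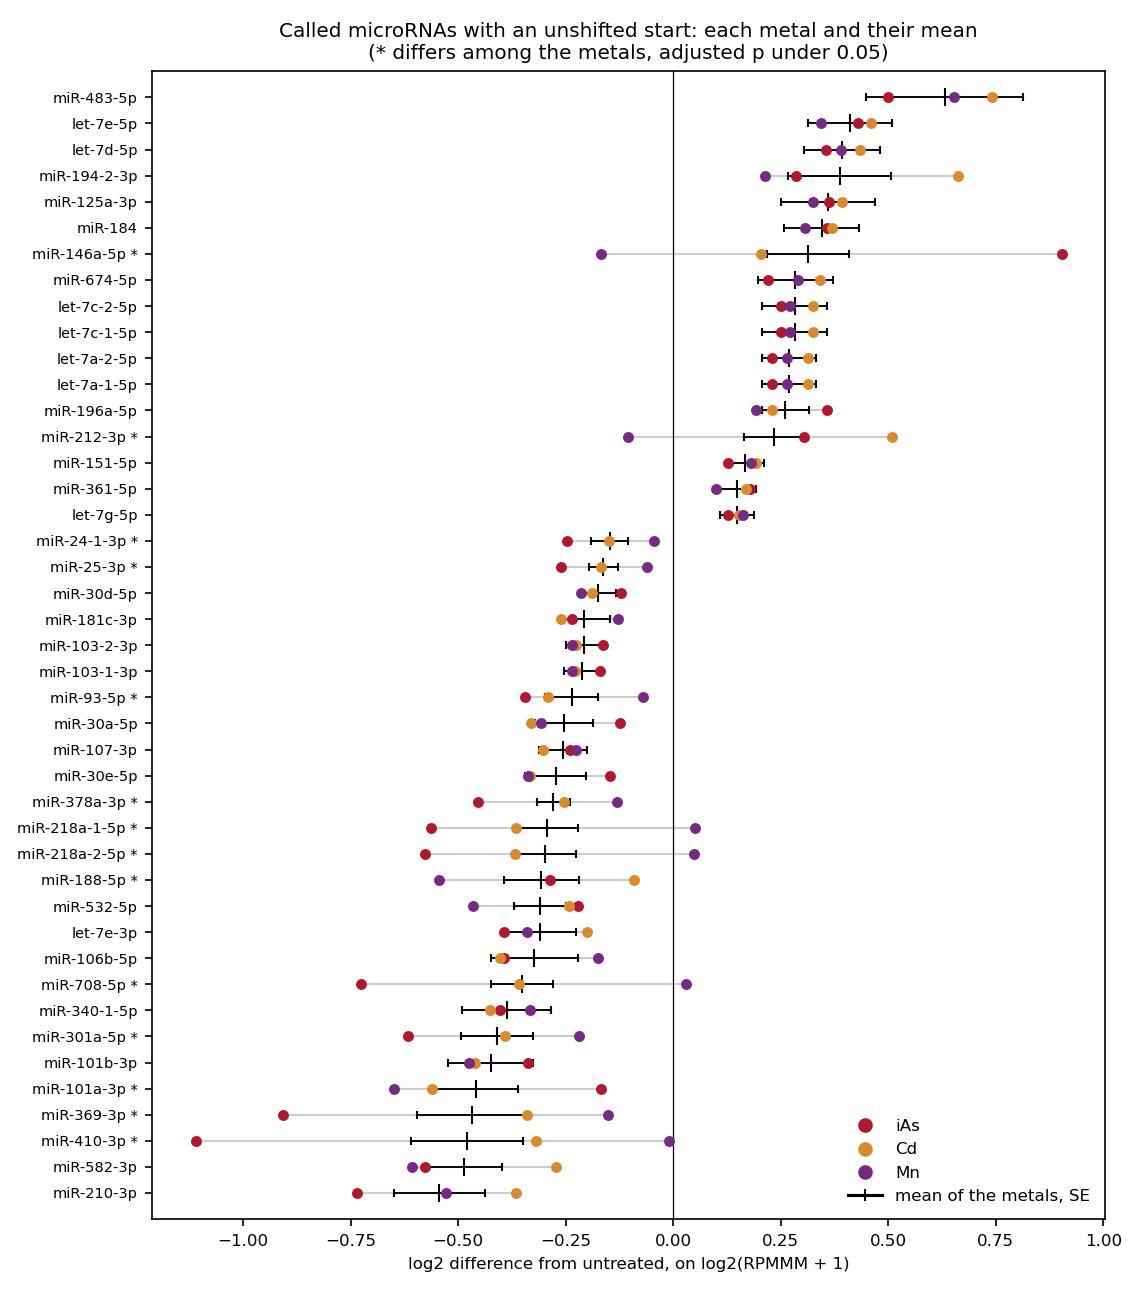
Log2 difference from untreated cells, on log2(RPMMM + 1), of iAs, Cd and Mn (coloured points) and of their mean with its SE (black bars), for the called rows with an unshifted start and values of their own. Asterisks mark rows that differ among the metals (limma, adjusted p under 0.05). Points lie close together for miR-103-1-3p and let-7d-5p and far apart for miR-146a-5p and miR-410-3p.

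Few rows of the microRNAs best known in beta cells were called for the mean. Of 63 distinct rows of the beta cell and islet list 1 rose (miR-184) and 1 fell (miR-24-3p), 3.17% against 13.5% of all distinct rows. Only 26 of the 63 had an unshifted start, so many rows are forms of the same microRNAs. Both calls were among these 26, while all 266 distinct unshifted rows held 17 higher and 26 lower. The median difference of the 63 rows was -0.04 (-0.03 without untreated replicate 1), and 13 of them differed among the metals, against 90 of all 505 distinct rows. miR-375-3p had 54065, 60884 and 67581 RPMMM as the lowest, median and highest metal library against 58128, 60296 and 63986 RPMMM in untreated libraries, a difference of -0.02 ± 0.05 (SE), and -0.05 without untreated replicate 1. miR-7a-1-5p, which led every library in abundance, had a difference of -0.07 ± 0.05 (SE), and -0.05 without that library, with 101325, 105153 and 116314 RPMMM as the lowest, median and highest metal library against 115953, 117563 and 106277 RPMMM in untreated libraries. Metal and untreated libraries overlapped for both. Of 30 distinct rows of the list of oxidant, hypoxia, NF-kB and p53 stress microRNAs, 3 rose (miR-146a-5p, miR-194-2-3p and miR-212-3p) and 1 fell (miR-210-3p), 13.3% against 13.5% of all distinct rows, with a median of -0.02 (0.02 without untreated replicate 1). miR-21-5p differed by -0.24 (-0.10 without untreated replicate 1) with a limma adjusted p of 0.1037, and miR-34a-5p by 0.11 with an adjusted p of 0.5390, neither called. Of the 13 distinct rows of miR-15, miR-16, miR-195 and miR-497 and the 10 of miR-183, miR-96 and miR-182, 0 were called in limma. In the miR-29 group 2 of 12 distinct rows rose (16.7%, near the 13.5% of all distinct rows), both of them shifted 5p forms of miR-29b, and miR-29a-3p had a difference of 0.05 (0.14 without untreated replicate 1) that joined 0.30 for iAs, 0.06 for Cd and -0.23 for Mn.

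No difference was detected in the share of shifted forms. They held 2.97%, 3.06% and 3.13% of RPMMM as the lowest, median and highest metal library against 3.07%, 3.00% and 3.05% in untreated libraries, a difference of 0.0249 percentage points (two-sided exact permutation test over 220 splits, p = 0.4455). Without untreated replicate 1 the difference was 0.0388 percentage points. The called rows included 14 shifted rows among the 31 higher and 12 among the 40 lower, where 244 of all 523 tested rows were shifted.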

How the data were processed

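Per the labels, the deposited table gives RPMMM, a form of RPM made by the authors with miRquant, in which the reads mapped to microRNAs total 1000000 per library. The submitters' processing notes name DESeq2, STAR, Salmon and rn6 without roles or versions. The value of 1 read was 0.127 to 0.169 RPMMM, but only 62.6% to 71.6% of low values were whole multiples of it within 0.0075 RPMMM, so reads were not recovered and no count test was run. The smallest value above 0 was 1.28 to 1.75 RPMMM, and 165 to 251 rows per library are listed at 0.

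Libraries were grouped by the treatment in their labels. Rows averaging 10 RPMMM or more were fitted with limma 3.58.1 (limma-trend, R 4.3.3) on log2(RPMMM + 1), 4 groups in 1 fit, without a replicate block. The contrast was the mean of iAs, Cd and Mn minus untreated. Benjamini-Hochberg adjustment ran over all 523 rows, with a threshold of 0.05. The nearest rows to the filter were miR-30a-5p_-_1 (10.1 RPMMM, kept) and miR-20b-5p_+_1 (9.99 RPMMM, left out). The fit was tested on simulated data. Sequences were matched by name to RefSeq (GRCr8), for 485 of 523 rows (92.7%). What the suffix of shifted forms counts is not given in the sources used here, so no sequence is shown for them.

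The rule for named rows took, among called rows, the 10 rises and the 10 falls of largest size, the 6 smallest p for the mean and for the difference among metals, the 2 smallest p per list and the most abundant row of a fixed set of microRNAs. Rows of shared seeds and clusters, let-7 members, miR-196a-5p, miR-107-3p, miR-218a-5p and miR-30a-5p and miR-30e-5p were named outside it, after their values were seen. The rows, lists and tests were chosen with earlier results of these data known. Alternatives covered the pseudocount, filter, scaling, weights, replicate block, GC share, each metal and each library. The mRNA libraries were not used here.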

Additional observations from a re-analysis of the deposited data

Results flagged for a closer look

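A total of 23 rows named by the rule differed among iAs, Cd and Mn by limma's F test. Their mean difference therefore joins unequal values. The adjusted p was 0.000128 for miR-27b-5p, 0.00017 for each of miR-146a-5p, miR-382-5p, miR-409a-3p_-_1 and miR-541-5p, 0.000379 for miR-708-5p and 0.000615 for miR-195-3p. It was 0.000975 for miR-212-3p and miR-410-3p, 0.0014 for miR-378a-3p, 0.0095 for miR-29a-3p and miR-582-3p_-_1, 0.0096 for miR-497-5p and 0.0116 for miR-369-3p. It was 0.0153 for miR-25-3p, 0.0177 for miR-132-3p and miR-29b-1-5p_-_5, 0.0295 for miR-101a-3p and 0.043 for miR-301a-5p. For miR-126a-3p, miR-24-1-3p, miR-29b-2-5p_-_1 and miR-93-5p it was 0.0441. Outside the rule, miR-188-5p (0.0285) and both rows of miR-218a-5p (0.000962 and 0.000975) also differed by this F test.

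iAs stood alone for miR-541-5p, with 27.8, 28.6 and 28.2 RPMMM in iAs, 61.5, 48.7 and 62.4 RPMMM in Cd and 46.7, 49.1 and 56.8 RPMMM in Mn libraries, against 49.2, 51.5 and 52.96 RPMMM in untreated libraries. Cd stood alone for miR-195-3p and miR-497-5p, with differences from untreated cells of -0.83 for miR-195-3p and -0.51 for miR-497-5p. The same rows differed by -0.11 and -0.02 with iAs and by 0.10 and -0.12 with Mn.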

How the results depend on the processing

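The direction of every called named row held under all alternatives run, which share most or all libraries with the fit that chose these rows. The number of calls, however, depended on the libraries and the model. Leaving out 1 library gave 1 to 111 rows for the metals against untreated (0 to 58 higher, 1 to 65 lower), 0 for every metal and 46 to 104 among the metals. Against 71 calls (31 higher, 40 lower), there were 38 (12 and 26) with no filter, 27 (8 and 19) with quantile normalization, 29 (14 and 15) with metals as 1 group, 36 (12 and 24) without iAs, 28 (11 and 17) without Cd, 46 (15 and 31) without Mn, 46 (19 and 27) for unshifted rows only, 44 (17 and 27) without the trend and 159 (77 and 82) with array weights, whose estimation stopped before its tolerance. The labels give no pairing. Deviations of same-numbered libraries correlated between -0.623 and 0.457, above 0.1 in all 3 iAs and Cd pairs (0.366, 0.457 and 0.182) but not in all pairs with untreated or Mn, and not every library correlated best with its own number, so the libraries are taken to share only a number. The replicate block gave 49 calls, with 17 higher and 32 lower, and 69 among the metals, and 8 of 35 named calls were lost. Every metal passed in 9 rows with array weights and 1 without Cd. Among the metals 55 of 260 rows passed at a mean of at least 50 RPMMM. Over the 523 rows it was 34 without iAs, 11 without Mn and 158 with array weights. Chosen after seeing the data, the GC correction gave 94 calls of 485 rows, against 68 for the same rows uncorrected. Without untreated replicate 1, the corrected fit gave 0, with 0 higher and 0 lower. Rows that were not called changed sign. These were miR-126a-3p (-0.0068), miR-27b-5p (0.11), miR-29a-3p (-0.0815), miR-382-5p (0.27), miR-409a-3p_-_1 (0.0759) and miR-541-5p (0.0711) without iAs, miR-34a-5p (-0.0101) with array weights, miR-375-3p (0.0094) and miR-499-5p (-0.0003) without Cd, miR-375-3p (0.0039) and miR-382-5p (0.0207) by median of ratios, and miR-382-5p with quantile normalization (0.0223) or pseudocount 5 (0.0065). Over single libraries left out, miR-29a-3p ran between -0.0173 and 0.14, miR-34a-5p between -0.0030 and 0.20, miR-375-3p between -0.0521 and 0.0172, miR-382-5p between -0.0269 and 0.0325 and miR-499-5p between -0.13 and 0.15. The causes were not tested. About 5907000 to 7905000 reads per library limit the precision of rows near 10 RPMMM.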
